A study of Mus musculus with 185 samples.

Results

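Postn-traced cells of the infarct were compared with resident Tcf21-traced cells of the uninjured mouse heart, across all genes. The members were chosen by their labels and by the capture in the cell name. They are the 27 cells labelled as activated and Postn-traced and the 17 cells labelled as resident and Tcf21-traced, 44 of the 185 cells of the series. A further 3 resident Tcf21-traced cells labelled Postn-positive were left out, so Postn entered the choice of both classes. The study asked which cells of the injured heart become myofibroblasts, and single cells were captured on the Fluidigm C1 system, in which each cell is lysed and its cDNA amplified in a chamber of its own.

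The traced cells came from Postn MCM/+; R26-eGFP mice and the resident cells from Tcf21 MCM/+; R26-eGFP mice. In either line the tamoxifen-dependent recombinase MerCreMer is made from the locus of the driver gene and switches on eGFP at Rosa26 for good. The strain of all cells is C57BL/6 (backcross N=6) and the age approx 5 months. Tamoxifen was given in the chow, infarction (MI) was made by tying off the left coronary artery, and the traced cells were taken 7 days after MI. The resident cells came from hearts without injury. Cells positive for CD31 or CD45 and dead cells were removed by sorting, and eGFP was read in the captured cells under the microscope. Several limits of the model bear on the comparison. A driver marks a cell only where its promoter has been active while tamoxifen was present, so the traced class holds cells that had switched Postn on, and Postn itself is not a finding. The injured tissue was dissected by its eGFP fluorescence. The cassette sits in Postn, so the traced mice carry a single intact allele of that gene, while the resident mice carry the cassette in Tcf21. The classes differ in driver, injury and capture at once, as well as in sex-linked RNA, and these cannot be told apart. In the tracing experiments of the study the lines also received tamoxifen on different schedules.

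Each value is log2(TPM+1), where TPM is an abundance scaled to the same total in every cell, and a class value is the mean over its cells. Each class pools cells of several mice, but the mouse behind a cell is named in no label, so a class is treated as 1 sample, without a test, and an SD describes only how cells spread. Detected means above 5 TPM in a given cell. Rps12, a gene of the ribosome that every cell needs, was listed at 0 in some resident cells, so an exact 0 is described as a listing and not as absence. Intervals at shares are exact Clopper-Pearson 95% limits and cover counting error only. Most genes are named by a fixed rule on the size of their difference. Actb, Bmp1, C3, Col4a1, Col4a2, Col8a1, Dcn, Dpt, Ebf1, Gapdh, Gstm2, Hsp90b1, Hspa5, Serpine2, Serpinh1, Sfrp4, Sparc, Tcf4, Tgfb1, Thbs2, Wisp2, Wnt5a and Xbp1 fall outside it and were chosen after their values were seen.

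Both classes looked like fibroblasts. Of 10 fibroblast markers, a median of 8 was detected per cell in either class, between 6 and 10 in the traced and between 7 and 9 in the resident cells. Dcn, which encodes the proteoglycan decorin, was the most abundant of them, with means of 13 and 14.02. No cell of either class had 3 or more detected markers of endothelial, myeloid, lymphoid, pericyte, cardiomyocyte, epicardial or Schwann cells. Only 3 of 10 lymphoid markers were in the data, so the bar says little for that list. Of 8 epicardial markers, only 1 was above 5 TPM in any cell. For smooth muscle, 2 of the 27 traced cells had 3. Pecam1 and Ptprc, the genes of CD31 and CD45, were not above 5 TPM in any of the 44 cells. The summed markers of endothelial cells had a median of 0 TPM in the traced and 4.63 TPM in the resident cells, with Tek the most abundant. Those of the myeloid list had a median of 0 TPM in either class, led by Cd14 in the traced and Cd68 in the resident cells.

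The classes stood apart in gene number and in sex-linked genes. More genes were detected in the traced cells, between 2155 and 4541 with a median of 3643, than in the resident cells, between 1862 and 2887 with a median of 2264. In 22 of the 27 traced cells the number exceeded that of every resident cell, and 5 lay within the resident range. The infarct cells of the same capture labelled Postn-negative had a median of 2342, near that of the resident cells. The 100 most abundant genes took similar shares of the TPM, with medians of 37.9% and 38.6%. The traced class also held cells of both sexes by their RNA. Xist, the RNA that coats the inactive X chromosome, was detected in 11 of 27 traced cells (40.7%, interval 22.4% to 61.2%). Y-linked genes were detected in 10 other traced cells, and neither was detected in 6. In the resident class Xist was detected in 0 of 17 cells (up to 19.5%) and Y-linked genes in 12. The 24 Postn-negative cells of the same infarct capture had Xist in 0 cells (up to 14.2%) and Y-linked genes in 17.

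**Figure D1:**
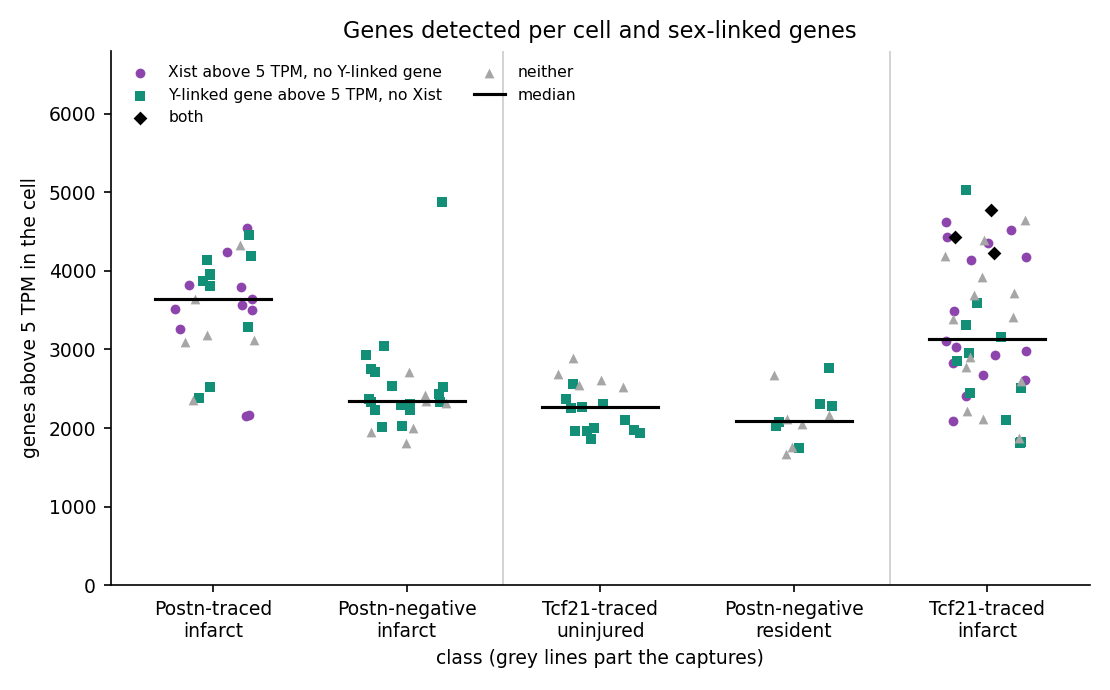
Genes above 5 TPM in each cell (vertical axis) by class, with the median as a line and the sex-linked genes as symbols. Most Postn-traced cells lie above the 17 resident Tcf21-traced cells, and the traced class holds cells with Xist and others with Y-linked genes.

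A single traced cell resembled the resident class in several genes. Its Postn, at 10.37, lay within the traced range, but its mean over the 13 other genes of the study's myofibroblast panel was the lowest of the class, at 4.39. In the same cell Gsn was 14.09 and Gstm1 12, both at resident levels, and Col1a1 was 3.85, lower than in any resident cell. Its Tcf21 was 9.40. The counts of calls, the panel and the resident genes are also given without it. It is 1 of the 5 traced cells within the resident range of gene number, and values from those 5 include it.

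Resident cardiac fibroblasts maintain the interstitial matrix and carry genes of lipid handling, detoxification and basement membrane upkeep. After infarction, fibroblasts near the wound divide, move in and turn into myofibroblasts, which make fibrillar collagen, cross-link it and pull on it through stress fibres.

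Matrix, secretory and contractile genes were among the rises and resident fibroblast genes among the falls, and the medians of the matrix, secretory and contractile lists outside the panel were smaller with the 5 traced cells of resident gene number. Of 13032 genes detected in at least 1 of the 44 cells, 718 were called higher in the traced cells (5.51%) and 65 lower (0.499%). A gene was called where the class means lay more than 2 log2 units apart and the gene was detected in 50% or more of the cells with the higher mean. The counts of the lists below are to be read beside these shares of all genes, 5.51% and 0.499%. Postn was the only gene for which every traced cell lay above every resident cell (0.00767% of the genes), which the labels fix in advance, and for 0 genes (0.0%) did every traced cell lie below. The median difference of all tested genes was 0.36, and 75.3% of the differences were positive. Of the calls, 91.7% were rises. That share was 79.7% for means on the linear scale, 78.1% with cells centred on widely detected genes and 65.3% with each cell limited to its 1500 most abundant genes. With the 5 traced cells in the resident range of gene number it was 57.8%, from 380 rises and 278 falls. Among the 420 genes detected in at least 80% of the cells of both classes, 22 were higher and 7 lower, with a median of 0.39. The median of all tested genes moved to 0.64 with a pseudocount of 0.1, to 0.86 with cells centred on their median detected gene and to -0.24 with cells centred on widely detected genes. It was 0 for medians over cells, for the 1500 most abundant genes and for the 5 traced cells. Without the traced cell at the resident end, 790 genes were higher and 65 lower, and without the cells with Xist 895 and 66. With the 3 Postn-positive resident cells added, 707 were higher and 59 lower.

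**Figure D2:**
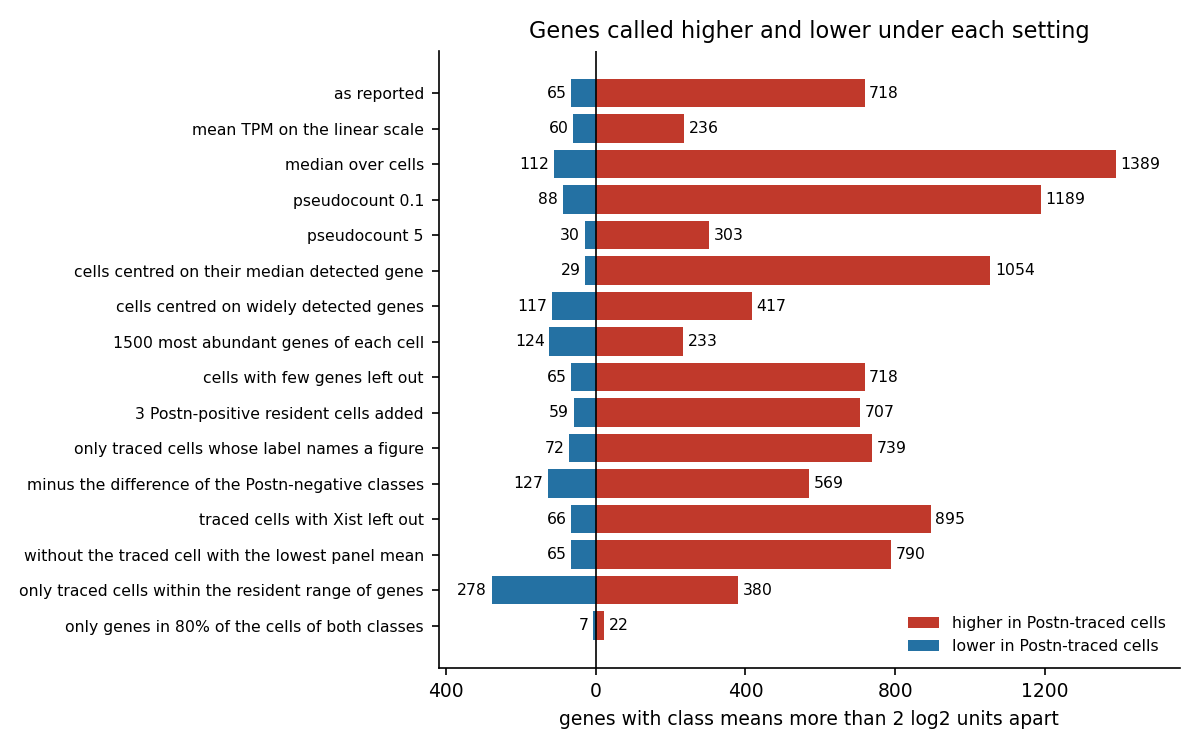
Genes called higher and lower (horizontal axis) under the main setting and each alternative (vertical axis). Rises outnumber falls in every setting, by 718 to 65 in the main one and by 380 to 278 with the 5 traced cells in the resident range of gene number.

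Among the called genes, 37 of the 718 and 0 of the 65 had clone or accession names, the largest rise being that of AK015545, at 4.12. Most genes moved little, and 9495 of the 13032 differed by at most 1 log2 unit.

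Other cells of the same captures were set beside the classes. The 24 Postn-negative infarct cells and 12 resident Postn-negative cells span the same captures and share no cell with the classes compared. Their difference holds injury as well as capture, so it isolates neither. Both were labelled as lacking Postn, so Postn, and perhaps genes that go with it, are low on both sides by choice. The 12 are not uniform, as Ptprc was above 5 TPM in 1 of them and the highest mean over the myeloid markers was 9.77, in a cell that was kept. Their difference was more than 50% of the traced difference, in the same direction, for 162 of the 718 higher and 8 of the 65 lower genes. With that difference subtracted, 569 genes were higher and 127 lower. Among them were 413 of the 718 rises (57.5%) and 43 of the 65 falls (66.2%), and the others were new calls.

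Postn, the label gene, ranged from 9.60 to 14.08 in the traced cells with a median of 11.69, and from 0.00 to 3.55 in the resident cells with a median of 1.31. The difference of 10.34 describes the label. Its promoter is shown because it drives both the intact allele and the MerCreMer of the targeted one. Of the 6 genes with the largest rises and falls looked for in the RefSeq promoters of GRCm38.p6, 4 were matched, with 8 start sites, and Cthrc1 and Smoc2 were not matched. The 250 bases before each start were searched on both strands for the motif of the immediate early factor AP-1 (TGANTCA), those of SMAD proteins (GTCTAGAC or CAGACA), the short motif of the TEAD factors of the Hippo pathway (GGAATG), NF-kB by name, and the core of the TATA box near many start sites (TATAAA). Capitals mark the letters matched, and 4 of the 8 starts held none, among them another start of Postn (chr3:54359017-54359266). The sequences are those of Postn (chr3:54360857-54361106, plus strand, TATA at -26), Timp1 (chrX:20869916-20870165, plus strand, TEAD at -247) and Gstm1 (chr3:108017819-108018068, minus strand, TATA at -30).
Postn: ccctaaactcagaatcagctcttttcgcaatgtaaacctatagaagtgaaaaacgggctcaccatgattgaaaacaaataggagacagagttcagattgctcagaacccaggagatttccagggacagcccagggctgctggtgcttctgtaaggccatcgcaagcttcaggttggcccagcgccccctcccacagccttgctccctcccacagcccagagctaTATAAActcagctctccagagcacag
Timp1: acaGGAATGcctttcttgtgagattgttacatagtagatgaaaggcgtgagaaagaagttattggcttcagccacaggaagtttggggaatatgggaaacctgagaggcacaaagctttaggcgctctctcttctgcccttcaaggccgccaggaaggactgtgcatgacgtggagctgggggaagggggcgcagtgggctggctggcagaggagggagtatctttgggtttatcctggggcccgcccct
Gstm1: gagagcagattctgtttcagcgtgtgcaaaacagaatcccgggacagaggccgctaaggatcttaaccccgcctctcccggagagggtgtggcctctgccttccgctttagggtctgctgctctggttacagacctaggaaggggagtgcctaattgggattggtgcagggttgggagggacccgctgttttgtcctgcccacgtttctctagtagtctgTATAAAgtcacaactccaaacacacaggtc
Of 32851 promoters of that length, 6.75% held the AP-1, 17.3% the SMAD, 12.6% the TEAD, 3.9% the NF-kB and 12.4% the TATA letters. A match describes letters and not a bound site.

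Several genes outside the panel had large rises. The ranking depends on the scale, since on the linear scale 1 of the 15 largest rises and 6 of the 15 largest falls stayed among the 15 largest. After the Postn-negative subtraction 8 and 7 stayed, and with the 5 traced cells in the resident range 10 and 8. Cthrc1, a secreted protein of wound matrix, ranged from 1.85 to 13.15 in the traced cells with a median of 10.85. In the resident cells it ranged from 0.00 to 10.07 with a median of 0.00, a difference of 9.78. A single resident cell had it above 5 TPM, against 26 of 27 traced cells, so the overlap rests on few cells. Timp1, an inhibitor of metalloproteinases, ranged from 0.00 to 12.45 with a median of 9.66 in the traced cells. It ranged from 0.00 to 8.89 with a median of 0.00 in the resident cells, a difference of 7.79, and 17 traced cells lay above all of them. Its promoter, shown above, is the one with the TEAD letters. Ptn, a heparin-binding growth factor, differed by 7.73, and Dhrs3, which reduces retinaldehyde to retinol, by 7.68. Both overlapped between classes, since each was detected in 6 of 17 resident cells. Csrp2, a LIM protein of the actin cytoskeleton, differed by 7.53, with 21 of 27 traced cells above every resident cell. Plp2, a membrane protein, differed by 5.78 and C1qtnf6, of the C1q and tumour necrosis factor family, by 5.59.

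For some of the largest rises the Postn-negative cells had sizeable values too. Rbm3, an RNA-binding protein induced by cold, was 7.65 in the traced and 1.04 in the resident cells, a difference of 6.61. It was also 5.69 in the Postn-negative infarct cells and 4.54 in the resident Postn-negative cells. Ssr2, a subunit of the complex that helps proteins into the endoplasmic reticulum, differed by 6.50, and by 2.81 between the Postn-negative classes. Cthrc1, by contrast, was 1.33 and 1.71 in those classes, and Ptn 0.93 and 2.44.

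**Figure D3:**
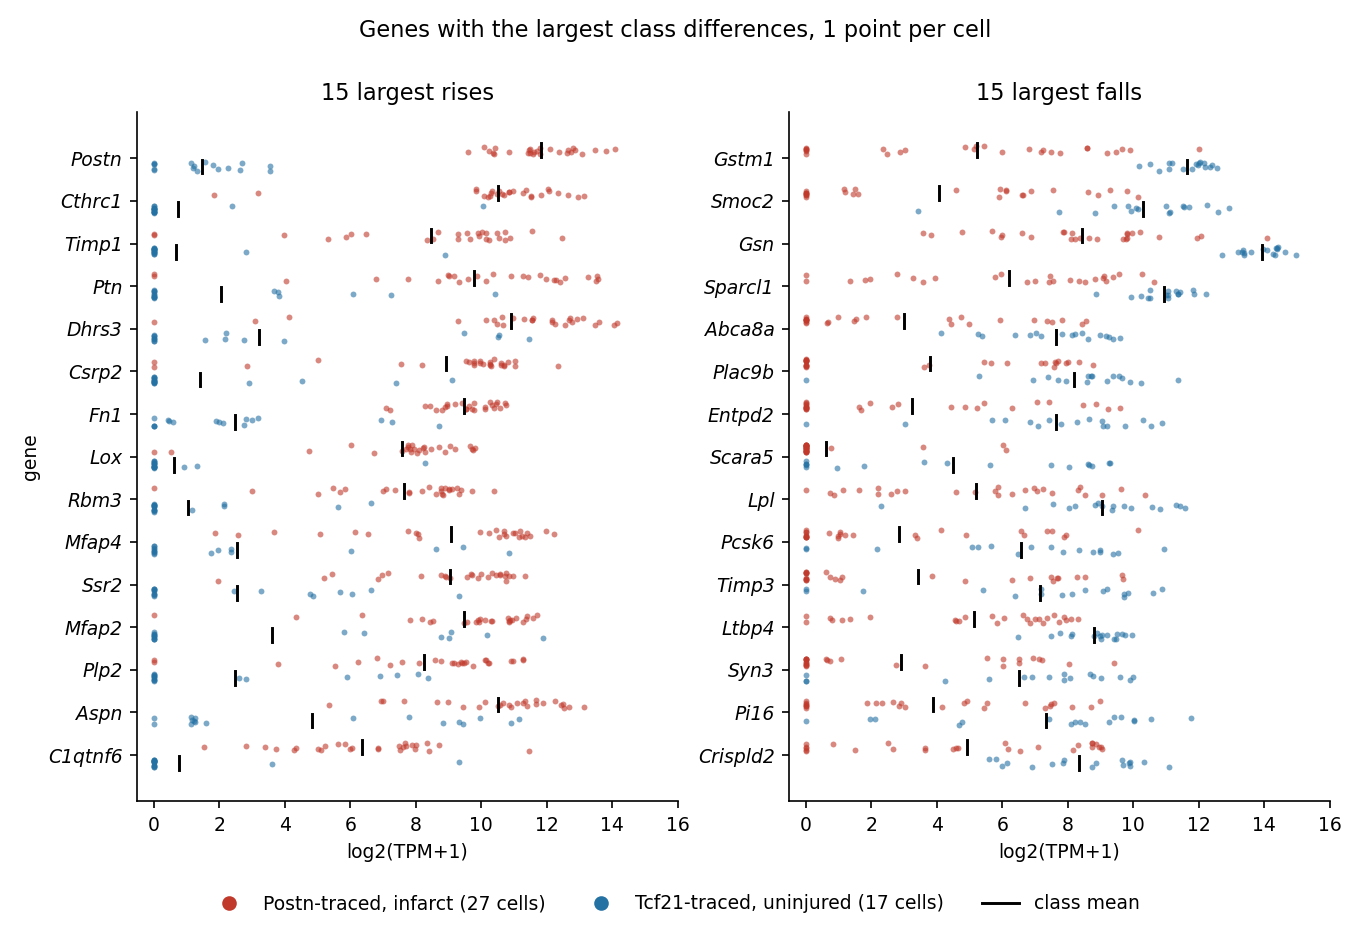
log2(TPM+1) of each cell (points) and class mean (bars) for the 15 largest rises and the 15 largest falls. Postn separates the classes completely, as the labels select for it on both sides, while the other genes overlap in at least 1 cell, and the falls of Gstm1 and Gsn leave 26 of 27 traced cells below every resident cell.

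The 14 panel genes were reported by the study for cells of this series and so are not independent evidence. All had positive differences, and 10 were called, or 9 of 13 without Postn. Averaged over the 14, traced cells ranged from 4.82 to 9.09 with a median of 7.51. Resident cells ranged from 2.28 to 4.65 with a median of 3.03, but this separation includes Postn, which the labels fix. Without Postn the ranges overlapped, from 4.39 to 8.71 in the traced and from 2.25 to 4.73 in the resident cells. The medians were then 7.19 and 3.26. Also without Postn, 26 of 27 traced cells lay above the highest resident cell, the exception being the cell described above. The 13 genes other than Postn took a median of 1.38% of the TPM of a traced cell and 0.165% of a resident cell. With Postn the share in a traced cell was 1.81%. The median difference of the 13 was 3.21. It was 3.30 without that cell and 2.26 with the 5 traced cells in the resident range. With Postn included the values were 3.27, 3.44 and 2.43, and either median kept its sign under every alternative. Fn1, the gene of fibronectin, ranged from 7.09 to 10.77 in the traced cells with a median of 9.64. In the resident cells it ranged from 0.00 to 8.71 with a median of 1.98, and 22 traced cells lay above all of these. Col1a2, a chain of type I collagen, was 11.84 ± 0.73 (SD, n = 27 cells) against 8.71 ± 1.43 (SD, n = 17 cells), and 25 traced cells exceeded every resident cell. Mfap2, a microfibril protein, differed by 5.88 and Ctgf, a matricellular protein, by 3.97. The 4 panel genes not called were Wisp1 (2.50, but detected in under 50% of the traced cells), Eln (1.98), Adam12 (1.64) and Fbn1 (1.49), of which Wisp1 was detected in 12 traced cells and Adam12 in 7.

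Collagens outside the panel were higher in part. Of 16, 4 were called higher and 1 lower, with a median of 1.45 that kept its sign under every alternative and was 0.07 with the 5 traced cells in the resident range. Col5a1 and Col5a2 encode the chains of type V collagen, which sets fibril diameter, and differed by 3.55 and 3.62. Col14a1, a collagen that binds fibrils, was 7.44 ± 2.15 (SD) in the traced and 3.59 ± 3.49 (SD) in the resident cells. Col8a1, a short-chain network collagen, differed by 2.42. Col15a1, a basement membrane collagen, went the other way. It was 2.96 in the traced and 5.46 in the resident cells, and 11 of 27 traced cells lay below every resident cell. Col4a1, of the basement membrane, differed by -0.92 without passing the rule, and Col4a2 by 1.35.

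Enzymes that modify and fold collagen were called higher in 7 of 19 and lower in 0. The median of 1.90 kept its sign under every alternative but was 0.74 after the Postn-negative subtraction and 0.13 with the 5 traced cells in the resident range. P4ha3, a catalytic subunit of prolyl 4-hydroxylase, was listed at 0 in all 17 resident cells and detected in 17 of 27 traced cells (63%, interval 42.4% to 80.6%). Fkbp10, a chaperone of procollagen, differed by 4.15, and Bmp1, the procollagen C-proteinase, by 3.0. Plod2, the lysyl hydroxylase of telopeptides, differed by 3.15, but by -0.36 with the 5 traced cells in the resident range. P4hb, the subunit that also serves as a disulfide isomerase, differed by 3.04, and by 3.34 between the Postn-negative classes. Serpinh1, the collagen chaperone HSP47, differed by 2.40.

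Matricellular proteins were called in both directions, mostly higher. Of 16, 8 were called higher and 1 lower. The median of 1.54 kept its sign under every alternative but was 0.43 after the Postn-negative subtraction and 0.32 with the 5 traced cells in the resident range. Mdk, the relative of Ptn, was 6.02 in the traced and 1.03 in the resident cells. Thbs2, a thrombospondin, differed by 4.29, Wisp2 by 4.15 and Sparc, a collagen-binding glycoprotein, by 2.43. Smoc2, a secreted relative of Sparc, fell. It ranged from 3.43 to 12.93 with a median of 11.01 in the resident cells and from 0.00 to 10.15 with a median of 4.58 in the traced cells, a difference of -6.23. In 13 of 27 traced cells it lay below every resident cell. It was also lower in the Postn-negative infarct cells, at 7.74, than in the resident Postn-negative cells, at 10.05.

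Elastic fibre genes were also called in both directions, mostly higher. Of 12 outside the panel, 4 were called higher and 1 lower, with a median of 1.63 that kept its sign under every alternative and was 0.21 with the 1500 most abundant genes, against -0.42 between the Postn-negative classes. Mfap4, which organises elastic fibres, differed by 6.53, Efemp2, the fibulin that brings lysyl oxidase to elastin, by 5.44 and Ltbp2, a microfibril protein, by 5.14. Ltbp2 was detected in 18 of 27 traced and 0 of 17 resident cells (up to 19.5%). Ltbp4, which holds latent TGF-beta and aids elastin assembly, was 5.14 ± 2.81 (SD) in the traced and 8.81 ± 0.93 (SD) in the resident cells, with 14 traced cells below every resident cell.

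For proteoglycans the sign of the median depended on the setting. Of 17, 2 were called higher (11.8%, against 5.51% of all genes) and 1 lower (5.88%, against 0.499%). The median of 0.46 became negative on the linear scale, with cells centred on widely detected genes and with the 5 traced cells. It was 0 for medians over cells and the 1500 most abundant genes. Aspn, which binds collagen and TGF-beta, ranged from 5.36 to 13.15 in the traced cells and from 0.00 to 11.16 in the resident cells, a difference of 5.66. Sdc4, a syndecan of focal adhesions, differed by 2.77, while Prelp, a leucine-rich repeat protein, fell by 2.42.

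Contractile and actin genes outside the panel were called higher in 9 of 22 and lower in 0. The median of 1.75 kept its sign under every alternative but was 0.61 on the linear scale and 0.20 with the 5 traced cells in the resident range. Actn1, an actinin that cross-links stress fibres, was 7.33 ± 2.90 (SD) in the traced and 2.02 ± 3.17 (SD) in the resident cells. Tagln, an actin-binding protein of smooth muscle, ranged from 0.00 to 12.13 in the traced cells with a median of 5.22 and from 0.00 to 5.27 in the resident cells with a median of 0.00. It was detected in 14 of 27 traced cells (51.9%, interval 31.9% to 71.3%) and in 1 of 17 resident cells. Myl9, a regulatory light chain of myosin, was detected in 15 of 27 and 0 of 17 cells (up to 19.5%), and its difference of 3.91 became -0.13 with the 5 traced cells in the resident range. Acta2, the gene of smooth muscle actin and a panel member, was called higher, with a difference of 3.09, and was listed at 0 in 11 of the 27 traced cells. The genes thus differed in how widely they were detected, since Actn1 and Pdlim7, a scaffold of stress fibres, were each detected in 24 of 27. Pdlim7 differed by 3.47, and Actb, the cytoplasmic actin, by -0.18.

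Of 14 adhesion genes (integrins, collagen receptors, cadherins and related genes), 3 were called higher (21.4%, against 5.51% of all genes) and 0 lower. The median of 0.95 was 0.13 on the linear scale, 0.25 with the 1500 most abundant genes and -0.26 with the 5 traced cells in the resident range. Cdh2, the N-cadherin of cell junctions, differed by 3.19, Itgbl1, an integrin-like secreted protein, by 2.49 and Itgav, the alpha chain that pairs in receptors activating latent TGF-beta, by 2.07. Itgbl1 was -0.42 with the 5 traced cells.

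Of 22 resident fibroblast genes 9 were called lower and 1 higher, and 12 did not pass, with a median of -1.96 that kept its sign under every alternative, against 0.80 between the Postn-negative classes. The mean over the list ranged from 4.67 to 7.19 with a median of 5.83 in the resident cells and from 2.0 to 6.23 with a median of 3.79 in the traced cells. In 22 of 27 traced cells it lay below every resident cell. The list took a median of 2.80% of the TPM of a resident cell, 0.456% of a traced cell and 3.34% of a Postn-negative infarct cell. Without the traced cell at the resident end the median was -2.18, and without the cells with Xist it was -2.12.

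Gsn, the gene of gelsolin, which severs actin filaments, ranged from 12.71 to 14.98 with a median of 14.09 in the resident cells. In the traced cells it ranged from 3.58 to 14.09 with a median of 8.37, a difference of -5.50. All traced cells but the one at the resident end lay below every resident cell, and in the Postn-negative infarct cells the mean was 14.03. Abca8a, a lipid transporter, was 3.0 in the traced and 7.64 in the resident cells, with 16 traced cells below all of the latter. Entpd2, an ectonucleotidase, differed by -4.38, Scara5, a ferritin receptor, by -3.88, Lpl, the lipoprotein lipase, by -3.84 and Pi16, a secreted marker of adventitial fibroblasts, by -3.45. Scara5 was detected in 3 of 27 traced and 10 of 17 resident cells. The member called higher was Ebf1, a transcription factor, at 2.01. Dpt, the matrix protein dermatopontin, differed by -0.07 and Tcf21, the driver gene of the resident class, by -0.01. The cassette sits in Tcf21 in the resident mice alone, so the Tcf21 value does not compare like with like. Tcf21 was detected in 13 of 27 traced and 9 of 17 resident cells. Its mean was 3.92 in the traced cells and 6.60 in the Postn-negative infarct cells of the same capture.

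**Figure D4:**
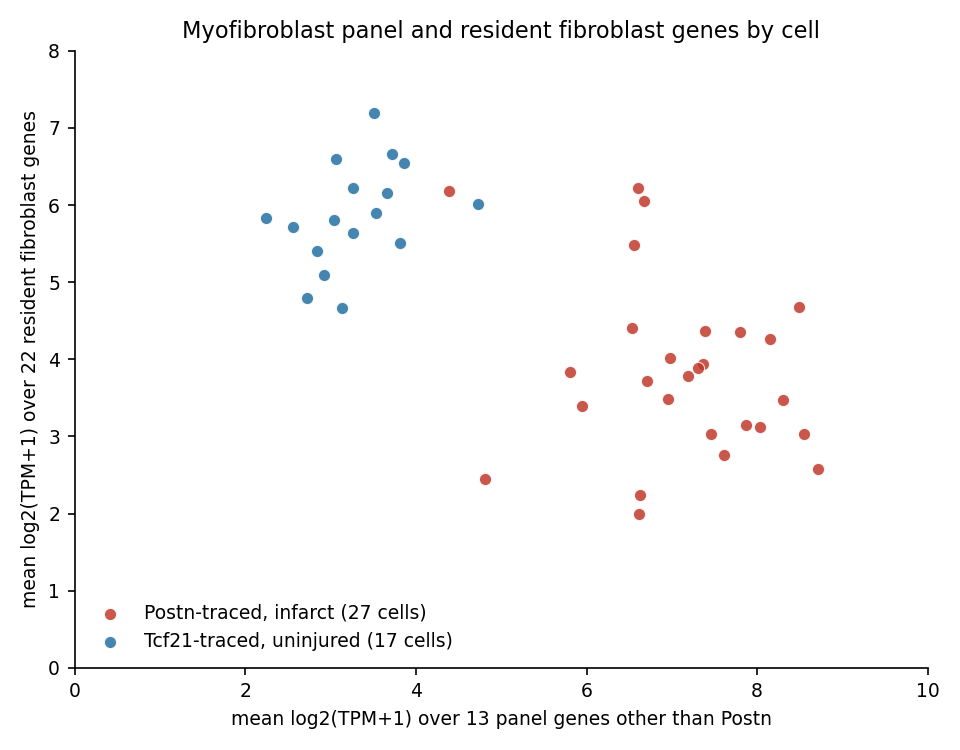
Mean log2(TPM+1) over the 13 panel genes other than Postn (horizontal axis) and over 22 resident fibroblast genes (vertical axis), 1 point per cell. The 17 resident cells occupy the upper left, 1 traced cell lies among them, and 22 of the 27 traced cells lie below every resident cell on the vertical axis.

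Traced cells differed in their mean over the resident gene list. In 5 of the 27 the mean over the resident genes was not below that of every resident cell. Tcf21, a member of the list that picked out these 5, was between 6.24 and 9.68 in them. It does not mark them, since other traced cells lay in that range, such as a cell at 9.31. Postn was between 10.37 and 12.81 in the 5, and Acta2 was listed at 0 in 4 of them, against 11 of all 27 traced cells. The cell with Postn at 10.37 is the traced cell at the resident end described above. Elsewhere, the 5 traced cells are those in the resident range of gene number, a different set that shares only this cell.

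Genes outside that list fell as far. Gstm1, a glutathione S-transferase, ranged from 10.17 to 12.55 with a median of 11.91 in the resident cells and from 0.00 to 12 with a median of 5.45 in the traced cells. The difference of -6.40 was the largest fall. The traced cell at the resident end was the only one to reach the resident range, and 6 traced cells were listed at 0. In the Postn-negative infarct cells the mean was 11.35. Gstm genes are near-identical and reads can be split among them, so the gene is uncertain as a separate finding. Gstm2 differed by 0.18. Of the 2 Gstm1 starts, the one shown above held the TATA letters and the other the SMAD letters, at -191. Sparcl1, a relative of Sparc, ranged from 8.87 to 12.23 with a median of 11.07 in the resident cells and from 0.00 to 10.64 with a median of 7.43 in the traced cells, a difference of -4.74. In 20 of 27 traced cells it lay below every resident cell. Timp3, an inhibitor bound to the matrix, differed by -3.71 and Syn3, whose gene encloses Timp3, by -3.59. Strand was not used in the values, so these overlapping genes are uncertain as separate findings. Plac9b, a small secreted protein with the near-identical copy Plac9a, differed by -4.39 and is uncertain because reads can be split between the copies. Pcsk6, a proprotein convertase, differed by -3.71 and Crispld2, a secreted protein, by -3.41.

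The wider glutathione and antioxidant list did not follow Gstm1. Of 17, 1 was called higher (5.88%, against 5.51% of all genes) and 2 lower (11.8%, against 0.499%), with a median of 0.09 that turned negative on the linear scale, with centring on widely detected genes, the 1500 most abundant genes, the 20 traced cells whose label names a figure, the Postn-negative subtraction and the 5 traced cells, and was 0 for medians over cells. Gpx1, a peroxidase, differed by 2.12. Gstt1, a theta class transferase, differed by -2.01 and by 0.54 with the 5 traced cells in the resident range.

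Proteases and inhibitors moved singly. Of 18, 3 were called higher (16.7%, against 5.51% of all genes) and 2 lower (11.1%, against 0.499%). The median of 0.55 turned negative on the linear scale, with centring on widely detected genes and with the 5 traced cells in the resident range of gene number. It was 0 for medians over cells. Mmp14, a membrane-bound collagenase, was 6.19 in the traced and 2.42 in the resident cells. Ctsk, the collagen-degrading cathepsin K, differed by 2.72, and by -1.35 with the 5 traced cells. Serpine2, an inhibitor of thrombin, fell by 2.38. So Timp1 and Timp3 moved in opposite directions, though Timp3 is uncertain as a separate finding because it overlaps Syn3.

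Several secreted Wnt modulators rose. Of 10 Wnt ligands and modulators tested, 4 were called higher and 0 lower, with a median of 1.26 that was 0 for medians over cells and kept its sign otherwise. It was 0.42 with the 5 traced cells in the resident range, 0.58 with the 1500 most abundant genes and 0.66 with centring on widely detected genes. Sfrp2 was listed at 0 in all 17 resident cells and detected in 14 of 27 traced cells (51.9%, interval 31.9% to 71.3%), with a traced mean of 4.80. Sfrp1, of the same frizzled-related family, was 6.10 in the traced and 2.61 in the resident cells. Dkk3 differed by 3.02 and Frzb by 2.80. Sfrp4, another secreted modulator, differed by 0.15, and Wnt5a, a ligand, differed by -1.30.

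Of 15 TGF-beta and BMP genes, 2 were called higher (13.3%, against 5.51% of all genes) and 0 lower, and the median of 0.19 turned negative on the linear scale, with centring on widely detected genes, with the 1500 most abundant genes and with the 5 traced cells. Nrep, a regulator of TGF-beta production in myofibroblasts, was 6.38 ± 4.03 (SD) in the traced and 1.70 ± 3.03 (SD) in the resident cells. Tgfb3 was 5.94 and 1.52, detected in 20 of 27 and 3 of 17 cells, while Tgfb1 differed by 0.19. So of the ligands only Tgfb3 passed the rule.

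Among 18 growth factors and receptors, 3 were called higher (16.7%, against 5.51% of all genes) and 0 lower. The median of 1.34 was 0 for medians over cells and 0.04 with the 5 traced cells. The called genes were the receptors Egfr (2.16), Pdgfrb (2.15) and Tnfrsf12a (2.10). Pdgfrb was above the highest resident cell in 10 of 27 traced cells. Egfr was -0.95 with the 5 traced cells.

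Transcription factors were called higher in 3 of 25 (12%, against 5.51% of all genes) and lower in 0, and the median of 0.30 turned negative with centring on widely detected genes, with the 1500 most abundant genes and with the 5 traced cells, and was 0 for medians over cells. Runx1, a factor of blood and skeletal development, was detected in 21 of 27 traced cells (77.8%, interval 57.7% to 91.4%) and 1 of 17 resident cells, a difference of 4.51. Foxp1, a forkhead repressor, differed by 3.58 and Creb3l1, which drives collagen secretion genes when cleaved, by 2.31. Tcf4, a basic helix-loop-helix factor, differed by -1.67 without passing the rule.

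Of 8 cartilage, tendon and bone genes tested, 1 was called higher (12.5%, against 5.51% of all genes) and 0 lower, with a median of 0.43 that turned negative with centring on widely detected genes and was 0 in 3 other settings. That gene was Cilp, a cartilage matrix protein, at 5.99 in the traced and 1.26 in the resident cells. It was 0.24 in the Postn-negative infarct cells.

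Of 23 endoplasmic reticulum genes, 10 were called higher and 0 lower, with a median of 1.95 that kept its sign under every alternative but was 0.34 on the linear scale and 0.06 with the 5 traced cells in the resident range. Between the Postn-negative classes it was 1.47, and 0.46 was left after the subtraction. Sec61a1, the pore of protein import, differed by 4.03, and by -0.35 with the 5 traced cells. Kdelr3, a receptor that returns resident proteins, differed by 3.74 and by -0.30 between the Postn-negative classes. Copb2, of the coat of retrograde vesicles, differed by 3.70 and Pdia6, a disulfide isomerase, by 3.44. Xbp1, the factor of secretory expansion, differed by 2.92, while the chaperones Hspa5 and Hsp90b1 differed by -0.42 and -1.32.

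Of 15 glycolysis genes 5 were called higher and 0 lower, with a median of 1.46 that was -0.29 with the 5 traced cells in the resident range. Pgk1, which makes ATP in glycolysis, differed by 4.13, and by -1.32 with the 5 traced cells. Hk2, the inducible hexokinase, differed by 3.44, Eno1 by 2.38 and Pgam1 by 2.33, while Gapdh differed by -0.85. Of 22 oxidative phosphorylation genes 5 were called higher and 0 lower, with a median of 1.14 that was 0.09 on the linear scale, 0.39 after the Postn-negative subtraction and -0.36 with the 5 traced cells. Between the Postn-negative classes it was 0.94. Ndufa2, of complex I, was detected in all 27 traced and 7 of 17 resident cells, a difference of 4.49. Atp5e and Sdhb differed by 3.06 each and Cox5a by 2.94, and Sdhb by -0.30 with the 5 traced cells. The part that gene number plays in these lists was not tested.

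Of 81 ribosomal protein genes, 8 were called higher (9.88%, against 5.51% of all genes) and 0 lower, with a median of 0.91 that kept its sign under every alternative and was 0.29 on the linear scale. They took a median of 13.2% of the TPM of a traced cell and 10.7% of a resident cell. Rps3 ranged from 8.52 to 10.80 in the traced cells and from 0.00 to 9.28 in the resident cells. Ribosomal protein genes have many pseudogenes, so single members such as Rps27l (3.36) and Rps12 (2.47) are uncertain.

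**Figure D5:**
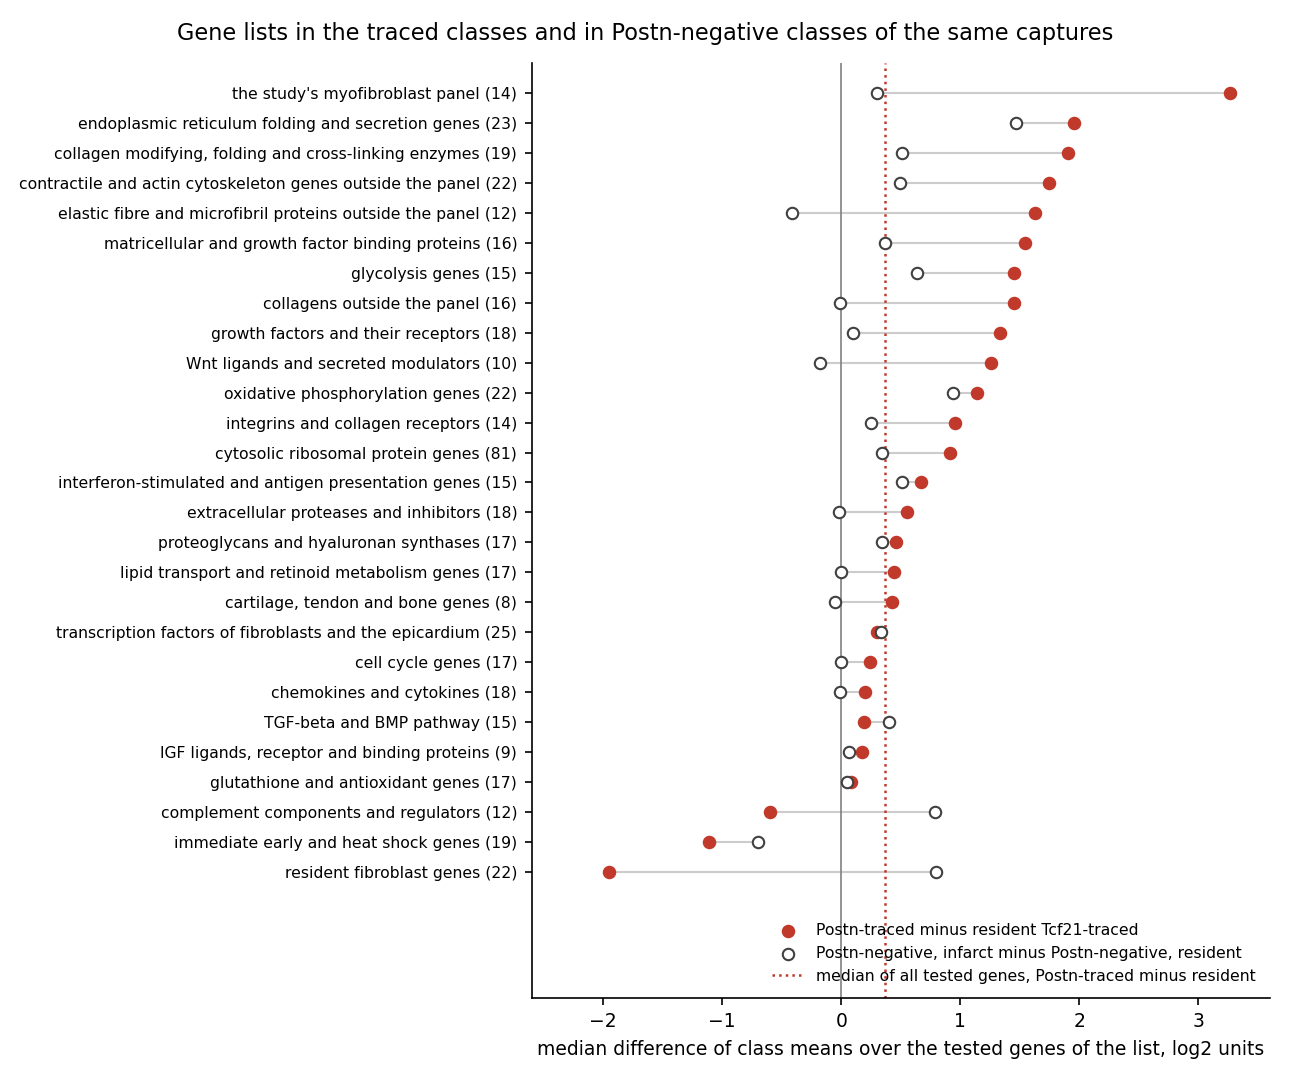
Median difference of class means in log2 units for each gene list, with the number of tested genes in brackets, for Postn-traced minus resident Tcf21-traced cells (filled) and for the Postn-negative classes of the same captures (open). The myofibroblast panel, Postn included, and the resident fibroblast genes differ most between the contrasts, at 3.27 against 0.30 and -1.96 against 0.80. Without Postn the panel lies at 3.21 and 0.31. Both classes of the open contrast are labelled as lacking Postn, so the Postn part of the gap is fixed by the labels. Genes that go with Postn may be held low there too. Oxidative phosphorylation genes, which turn negative with the 5 traced cells in the resident range of gene number, lie at 1.14 and 0.94.

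Of 19 immediate early and heat shock genes, 2 were called lower (10.5%, against 0.499% of all genes) and 1 higher (5.26%, against 5.51%). The median of -1.11 kept its sign under every alternative but was only -0.07 after the Postn-negative subtraction. Between the Postn-negative classes it was -0.70. Klf4, a zinc finger factor, was 6.54 in the traced and 8.78 in the resident cells, and Jun, of AP-1, was 6.85 and 8.90. Ier3, an early gene of survival, went the other way, at 7.37 and 2.81. These genes are known to respond to tissue digestion, whose part was not tested.

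Of 12 complement genes 1 was called higher (8.33%, against 5.51% of all genes) and 0 lower, with a median of -0.60 that was 0 for medians over cells. Cd59a, which blocks the membrane attack complex, was listed at 0 in all 17 resident cells and detected in 15 of 27 traced cells, while C3 differed by -1.86. Of 18 chemokine and cytokine genes 0 passed, with a median of 0.20 that turned negative with centring on widely detected genes and with the 5 traced cells, and was 0 for medians over cells and the 1500 most abundant genes. Ccl2, the monocyte chemokine, was detected in 5 of 27 traced and 0 of 17 resident cells, with 12.70 in the highest cell. Cxcl5 was detected in 8 and 0. Of 15 interferon and antigen presentation genes 0 were called higher (against 5.51% of all genes) and 1 lower (6.67%, against 0.499%). The median of 0.67 turned negative on the linear scale and with the Postn-negative subtraction, and was 0 for medians over cells. The gene called lower was Ifi205, at 3.83 and 6.18, while the Postn-negative infarct cells had 8.93.

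Of 17 lipid and retinoid genes 1 was called higher, Dhrs3 (5.88%, against 5.51% of all genes), and 1 lower, Apoe (5.88%, against 0.499%). The median of 0.44 turned negative with centring on widely detected genes and was 0 for medians over cells and with the 5 traced cells. Apoe, a lipid carrier, ranged from 0.00 to 12.99 in the traced and from 0.00 to 12.79 in the resident cells, with means of 5.15 and 8.44. Between the Postn-negative classes it fell by 6.47, more than between the traced classes, so with that difference subtracted its sign turned, to 3.18.

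Of 9 IGF genes 0 passed, and the median of 0.18 turned negative in 5 settings, those of the linear scale, centring on widely detected genes, the 1500 most abundant genes, the Postn-negative subtraction and the 5 traced cells, and was 0 in 3 others. Igfbp4, a binding protein, was 6.06 in the traced and 7.69 in the resident cells, and Igf1r, the receptor, 1.74 and 3.32.

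Of 17 cell cycle genes 0 passed, with a median of 0.24 that turned negative with centring on widely detected genes and with the 5 traced cells, and was 0 for medians over cells and the 1500 most abundant genes. Stmn1, a microtubule regulator of dividing cells, was detected in 8 of 27 traced and 1 of 17 resident cells. Mcm6, of the replicative helicase, was detected in 4 and 0.

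The activated Tcf21-traced cells, 44 infarct cells of another capture with the tracer of the resident class, lay between the classes for some genes and beyond the traced cells for others. Against the same resident cells, which both contrasts share, their panel median was 2.24 (2.11 without Postn) and their resident gene median -1.38. Cthrc1 was 6.95 in them and Timp1 8.10. Gsn was 10.14 and Gstm1 6.43. Ptn was 3.95 and Mdk 1.76, nearer the resident cells than the traced cells. Ctgf, at 7.51, Mmp14, at 7.11, and Pgk1, at 6.12, exceeded the traced means. Xist was detected in 19 of the 44, in 3 of them beside Y-linked genes, and no cell was removed as a possible doublet.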

How the data were processed

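The deposited values are log2(TPM+1), per the file headers, although the title of the table names FPKM. Converted back, each cell adds up to 999257 at the least and 1000000 at the most, as TPM do. The submitters' processing notes name Bowtie 1.0.0 and eXpress 1.5.1 on the mouse genome mm10. The gene annotation is not given in the sources used here. Of the columns, 3 have no sample and were not used. The table gives no read depth of single cells, so the number of genes above 5 TPM was used in its place. Members and gene lists were chosen with earlier results of these data known.

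Values were averaged over the cells of a class and subtracted, traced minus resident, with the tested and called genes as given in the report. The genes named are the 15 largest rises and 15 largest falls among called genes without clone names, up to 4 called members of each list or 2 where none passed, the panel, the label genes and the checks. Further genes chosen after their values were seen are listed in the report. Alternatives changed the mean, the pseudocount, the scaling, the thresholds and the cells. The code was tested on simulated data. Tables were handled with pandas 2.3.3 and NumPy 2.4.6 under Python 3.11.15, intervals came from SciPy 1.17.1, and Matplotlib 3.10.9 drew the figures.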

Additional observations from a re-analysis of the deposited data

How the results depend on the processing

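Of 1344 values of the 96 called genes named by the rule, over 14 settings, 1288 stayed within the spread between cells, 45 moved further and 11 took the other sign, and 85 of the 96 genes kept 1 sign throughout. The spread between cells is wide, so staying within it is a lenient bar, and 1 of the settings could move nothing. Of the 718 rises, 29.9% were still called with the 1500 most abundant genes, 28.8% with the 5 traced cells and 30.2% on the linear scale. Of the 65 falls it was 66.2%, 81.5% and 60%. Counts are given as higher, then lower, against 718 and 65. Means on the linear scale gave 236 and 60. Medians over cells gave 1389 and 112, with a median of all genes of 0 and a panel median, here and below with Postn, of 4.68. A pseudocount of 0.1 gave 1189 and 88, with 0.64 and 4.10, and a pseudocount of 5 gave 303 and 30. Centring on the median detected gene gave 1054 and 29, with a median of all genes of 0.86. Centring on widely detected genes gave 417 and 117, with -0.24. The 1500 most abundant genes gave 233 and 124, with 0. Subtraction of the Postn-negative difference gave 569 and 127, of which 413 and 43 were also called in the main setting. It turned P4hb to -0.30 and Apoe to 3.18. Means more than 1 apart gave 1427 and 172, and more than 3 apart 267 and 19.

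Other alternatives were chosen after seeing the data. Genes in 80% of the cells of both classes gave 22 and 7, since fewer genes were tested. The 5 traced cells in the resident range of gene number gave 380 and 278, with a median of all genes of 0 and a panel median of 2.43. There Plod2 was -0.36, Myl9 -0.13, Itgbl1 -0.42, Gstt1 0.54, Ctsk -1.35, Egfr -0.95, Sec61a1 -0.35, Pgk1 -1.32 and Sdhb -0.30. Leaving out cells with few genes removed 0 cells. The cause was not tested. Each class counts as 1 sample from 1 capture, and the mouse of a cell is unknown. Depth may limit the low genes, which was not tested because the read depth of single cells was not given.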
